A study of Mus musculus with 9 samples.

Results

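Acod1, S100a8, Mpeg1, Lilr4b, Lilrb4a, Cd68, Cd14, Mrc1, Csf1r and Trem2 are best known from macrophages, monocytes and neutrophils, and all 10 had reads in cultures labelled as mouse embryonic fibroblasts. They are 10 of the 16428 genes in the deposited table and were found there by symbol, through their Ensembl gene IDs in GENCODE M21. They were chosen by their read counts in these libraries, as myeloid-type genes with measurable values, and with their KO and CARM1i values in view. Their levels and differences are therefore a description, with no test, and nothing is read from how many of them differ.

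The libraries are 3 KO, 3 CARM1i and 3 WT libraries of poly(A) RNA. KO cells had been given 2 uM 4-OHT, a tamoxifen metabolite that switches on the ER-Cre recombinase, for 6 days. CARM1i cells had been kept for 6 days with TP-064 at 1 uM, which blocks the arginine methyltransferase CARM1, and WT cells had no treatment. All 9 libraries carry the genotype CARM1f/f ER-Cre, so the WT cells hold the floxed alleles and the recombinase as well, and the CARM1i cells differ from them only in treatment by the labels. Cells with 4-OHT and no floxed gene, or with vehicle alone, are not among these groups, so the deletion and 4-OHT cannot be told apart. The labels and the table do not state the promoter behind ER-Cre, the embryo age or whether replicates are separate cultures, so the spread between libraries may be technical.

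Totals ran from 28657018 to 35842771 reads per library, and values below are read counts divided by a size factor for depth ("normalised counts"). The targeted gene, Carm1, had 794, 711 and 770 normalised counts in KO libraries, 1112, 1072 and 986 in CARM1i libraries, and 1079, 1143 and 1091 in WT libraries. It fell in KO cells against WT by 0.54 on the log2 scale (SE 0.06, adjusted p = 5.49e-07, limma with Benjamini-Hochberg adjustment over 14560 genes), so transcript that counts towards the gene remained in the libraries labelled KO. The labels do not say which exons are floxed, so counts over the whole gene cannot check the deletion. CARM1i replicate 3 stood apart from its group: the chi-square per gene was 7.43 and 7.97 against replicates 1 and 2, which differed from each other by 3.09, against 2.44 to 3.92 among KO and 2.80 to 5.28 among WT libraries. The members' differences between CARM1i and WT are given with and without it.

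Myeloid cells sense microbes, damaged tissue and lipids with surface receptors, take particles up into lysosomes, and release antimicrobial proteins and metabolites. Among the 10 genes, Csf1r encodes the receptor for the growth factors CSF1 and IL-34 that keep macrophages alive. Cd14 holds lipopolysaccharide for the receptor TLR4, Mrc1 is the mannose receptor, Trem2 binds lipids and lipoproteins and signals through the adaptor TYROBP, and Lilr4b and Lilrb4a are immunoglobulin-type receptors. Lilrb4a carries inhibitory motifs in its cytoplasmic tail. Cd68 encodes a glycoprotein of lysosomes and endosomes, Mpeg1 the pore-forming protein perforin-2, S100a8 a calcium-binding subunit of calprotectin, and Acod1 the mitochondrial enzyme that makes itaconate. Fibroblasts are known to make CSF1, and they can carry CD14 and TLR4.

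All 10 genes were weakly expressed, with 17 to 369 reads in any library. Summed over the 10 genes, KO libraries held 1241, 1272 and 1353 normalised counts, CARM1i libraries 711, 771 and 875, and WT libraries 493, 546 and 575. The groups did not overlap in this sum: KO was highest, CARM1i lay between, and WT was lowest. That order was not shared by each gene: Acod1, S100a8, Mpeg1, Lilr4b and Lilrb4a stood clearly highest in KO. Cd14 had its lowest mean there, and the groups of Csf1r overlapped. In bulk RNA, fewer cells of a type and less RNA per cell cannot be told apart. All 10 genes passed the filter for testing, a mean of at least 10 over the libraries.

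**Figure D1:**
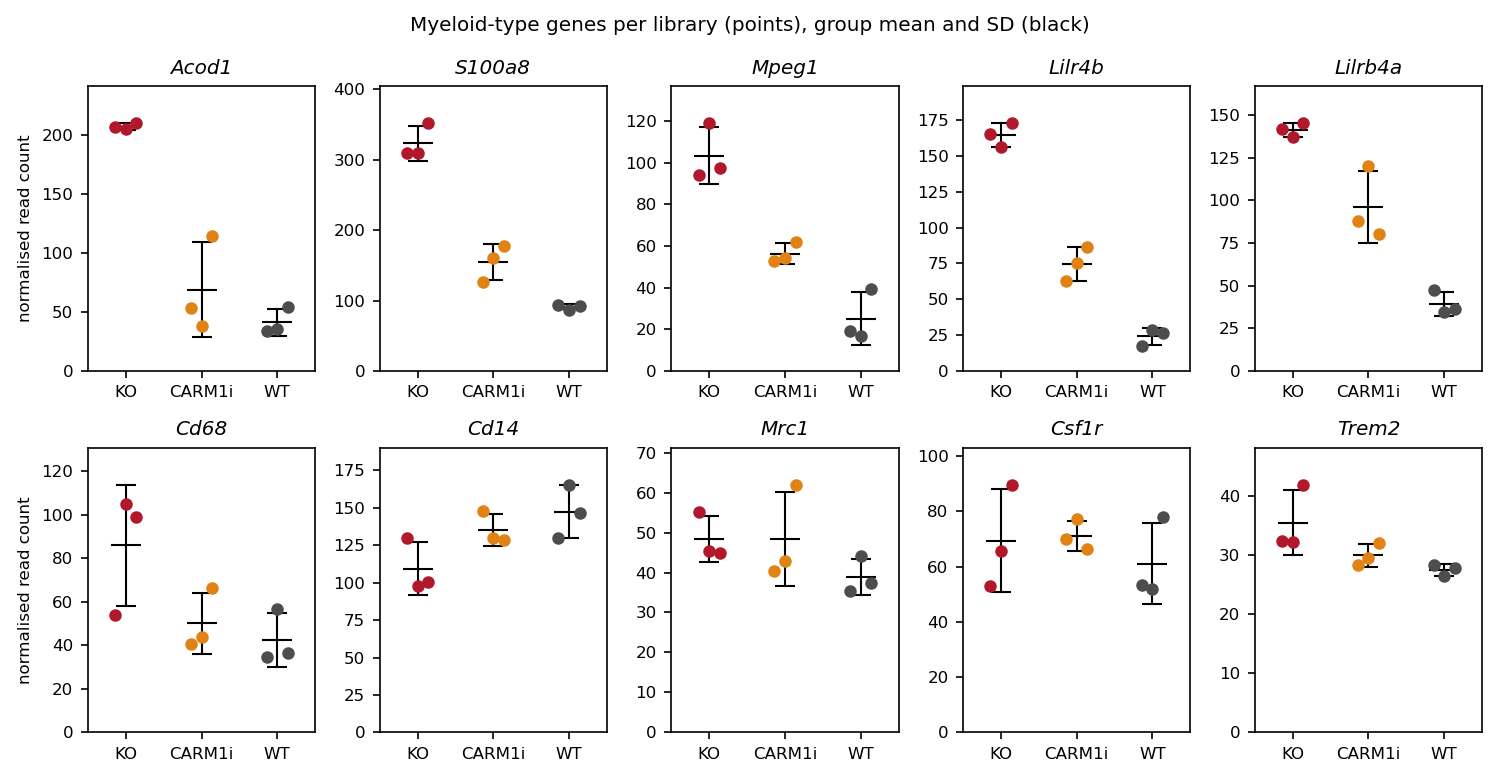
Normalised read count (vertical axes, from 0, a separate scale per gene) of the 10 genes in KO, CARM1i and WT libraries; each point is a library, and black bars are the group mean and SD (n = 3). Acod1, S100a8, Mpeg1, Lilr4b and Lilrb4a show 3 KO points above every other point, and Cd14 shows its highest point, 165, in WT.

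Acod1 (ENSMUSG00000022126.6, mm10 chr14:103046977-103056573, plus strand, 5 exons) had 206, 205 and 210 normalised counts in KO libraries, 53.7, 38.1 and 114 in CARM1i libraries, and 33.6, 35.2 and 54.5 in WT libraries. The KO libraries lay close together and far above all others, while CARM1i replicate 3 stood well above its 2 fellow libraries, whose values fell within the WT range. On the log2(value + 1) scale the difference was 2.34 ± 0.29 (SE) for KO against WT, 0.61 ± 0.29 for CARM1i against WT and -1.73 ± 0.29 for CARM1i against KO. Without CARM1i replicate 3, CARM1i against WT stood at 0.17 and CARM1i against KO at -2.17. The spread of the CARM1i libraries was 4.83 times the SD that read counting alone gives, against 0.18 times in KO and 1.84 times in WT.

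S100a8 (ENSMUSG00000056054.9, chr3:90668978-90670035, plus strand) had the most reads of the 10 genes in KO libraries, with 309, 310 and 352 normalised counts. CARM1i libraries held 127, 160 and 177, and WT libraries 93.9, 87.1 and 91.95. The 3 groups were separate, and the WT libraries were nearly alike. KO against WT differed by 1.82 ± 0.13 (SE) on the log2 scale, CARM1i against WT by 0.75 and CARM1i against KO by -1.07, and without CARM1i replicate 3 the last pair became 0.64 and -1.18. Its partner in calprotectin, S100a9, lies 22597 bases away and has no values in the data used here. The S100 gene on its other side, S100a7a, averaged 50.3 ± 7.17 in KO, 32.6 ± 7.73 in CARM1i and 35.5 ± 3.94 in WT libraries (SD, n = 3 each).

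Mpeg1 (ENSMUSG00000046805.9, chr19:12460779-12465283, plus strand, 2 exons) had 94.0, 119 and 97.3 normalised counts in KO libraries, 52.6, 54.3 and 62.0 in CARM1i libraries, and 19.0, 16.6 and 39.6 in WT libraries. No library of any group reached into the next group's range, although WT replicate 3 held more than the other WT libraries together. KO against WT differed by 2.10 ± 0.26 (SE) on the log2 scale and CARM1i against WT by 1.24, and without WT replicate 3 these became 2.47 and 1.61. CARM1i against KO stood at -0.86. The lowest count of all 10 genes was here, with 17 reads in WT replicate 2.

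The 250 bases before the RefSeq start of Acod1, S100a8, Lilr4b and Mpeg1 are shown because these genes had the largest KO differences among those with a promoter in the RefSeq table used (GRCm38.p6, 7 of the 10 genes found). Capitals mark matches to a TATA box (TATAAA) or to the core of PU.1 sites (AGGAAGT), a myeloid transcription factor. All 4 promoters are on the plus strand.
Acod1, chr14:103046762-103047011: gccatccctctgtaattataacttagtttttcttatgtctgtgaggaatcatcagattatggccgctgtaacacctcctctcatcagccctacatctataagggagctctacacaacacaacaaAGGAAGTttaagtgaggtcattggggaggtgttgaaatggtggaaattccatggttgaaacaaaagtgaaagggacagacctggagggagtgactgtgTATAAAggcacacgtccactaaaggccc
S100a8, chr3:90668821-90669070: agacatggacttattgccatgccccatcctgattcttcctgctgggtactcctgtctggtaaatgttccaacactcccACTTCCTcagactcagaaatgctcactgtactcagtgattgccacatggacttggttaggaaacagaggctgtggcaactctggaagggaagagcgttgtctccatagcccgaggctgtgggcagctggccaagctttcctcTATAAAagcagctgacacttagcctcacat
Lilr4b, chr10:51480362-51480611: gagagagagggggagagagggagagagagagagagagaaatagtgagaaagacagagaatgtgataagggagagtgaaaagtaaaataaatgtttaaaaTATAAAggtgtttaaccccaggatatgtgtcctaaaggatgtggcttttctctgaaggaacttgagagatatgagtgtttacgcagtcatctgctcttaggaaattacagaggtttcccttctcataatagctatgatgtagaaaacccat
Mpeg1, chr19:12460520-12460769: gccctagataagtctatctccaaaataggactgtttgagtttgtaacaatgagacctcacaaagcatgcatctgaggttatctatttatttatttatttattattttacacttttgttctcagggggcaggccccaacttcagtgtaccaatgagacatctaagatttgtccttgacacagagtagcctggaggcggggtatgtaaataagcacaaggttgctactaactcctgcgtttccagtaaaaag
Acod1 and S100a8 each hold TATAAA on the promoter strand, starting 28 and 30 bases before the RefSeq start, and each holds the PU.1 core, starting 126 bases before it in Acod1 and 172 bases before it, on the other strand, in S100a8. In Lilr4b the TATAAA match starts 151 bases before the start. Over the 300-base windows of all 32851 promoters, read on both strands, TATAAA stood in 13.6% and the PU.1 core in 9.35%. TATAAA lay wholly within 36 to 20 bases before the start, on the promoter strand, in 1.77%, a window chosen after the matches were seen. The GENCODE starts of Acod1 and S100a8 lie upstream of their RefSeq starts, and in both genes the TATAAA match falls inside the GENCODE gene.

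Other motifs searched were AP-1 (TGANTCA), NF-kB (GGGNNTTCC), C/EBP (TTGCNNAA) and the interferon response element, in windows that run on to 50 bases after the start. AP-1 stood in the Cd68 window at 149 and 24 bases before the start and in the Trem2 window 9 bases before it. C/EBP stood in the same 2 windows, 43 bases before the start in Cd68 and 23 bases after it in Trem2. Mrc1 held an NF-kB match 74 bases before its start and a PU.1 core 211 bases before it, and no match in any window overlapped another. Over all promoters these motifs stood in 7.81% (AP-1), 5.82% (NF-kB), 10.8% (C/EBP) and 3.44% (interferon response). The Mpeg1 window held none of the 6 motifs searched, which says only that these letters are not in that window.

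Lilr4b (ENSMUSG00000112023.1, chr10:51480632-51486703) and Lilrb4a (ENSMUSG00000112148.1, chr10:51490956-51496611) stand in tandem on the plus strand, 4253 bases apart, and are close copies. Lilr4b had 165, 156 and 173 normalised counts in KO libraries, 62.8, 75.3 and 86.6 in CARM1i libraries, and 17.2, 28.4 and 26.7 in WT libraries. Lilrb4a had 142, 137 and 145 in KO libraries, 88.1, 120 and 80.2 in CARM1i libraries, and 47.4, 34.3 and 36.4 in WT libraries. In both genes the 3 groups were separate, in the order KO, CARM1i, WT from high to low.

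For KO against WT the log2 difference was 2.75 ± 0.20 (SE) in Lilr4b, the largest of the 10 genes, and 1.83 ± 0.18 in Lilrb4a. CARM1i against WT stood at 1.61 in Lilr4b and 1.26 in Lilrb4a, and CARM1i against KO at -1.14 and -0.57 in the same order. Coding sequences of the pair are 96.0% identical over their aligned bases and the encoded proteins, of 303 and 335 residues, 89.4% identical. Of all 50-base stretches in the annotated transcripts, 24.6% of those of Lilr4b and 47.2% of those of Lilrb4a also occur in a transcript of another gene. In the longest-coding transcript of Lilrb4a that share is 100%. The gene Gm49339 overlaps both genes on the same strand and shares 1846 bases with the merged exons of Lilrb4a. How the authors' counting treated reads that match several genes is not given in the sources used here, so the split between the pair is uncertain.

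The sum of the pair does not depend on the split between them, although reads dropped as ambiguous would be missing from it. It was 306.9, 293.3 and 317.6 normalised counts in KO libraries, 150.8, 195.4 and 166.7 in CARM1i libraries, and 64.6, 62.6 and 63.1 in WT libraries, so WT libraries differed less in the sum than in either gene. The Lilr4b share of the sum was 53.8% ± 0.55 in KO, 44.0% ± 7.01 in CARM1i and 38.1% ± 10.0 in WT libraries (SD, n = 3 each). Around the group means, the genes deviated in opposite directions (Pearson r = -0.57 over 9 libraries, a description that also holds the effect of any shared reads).

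**Figure D2:**
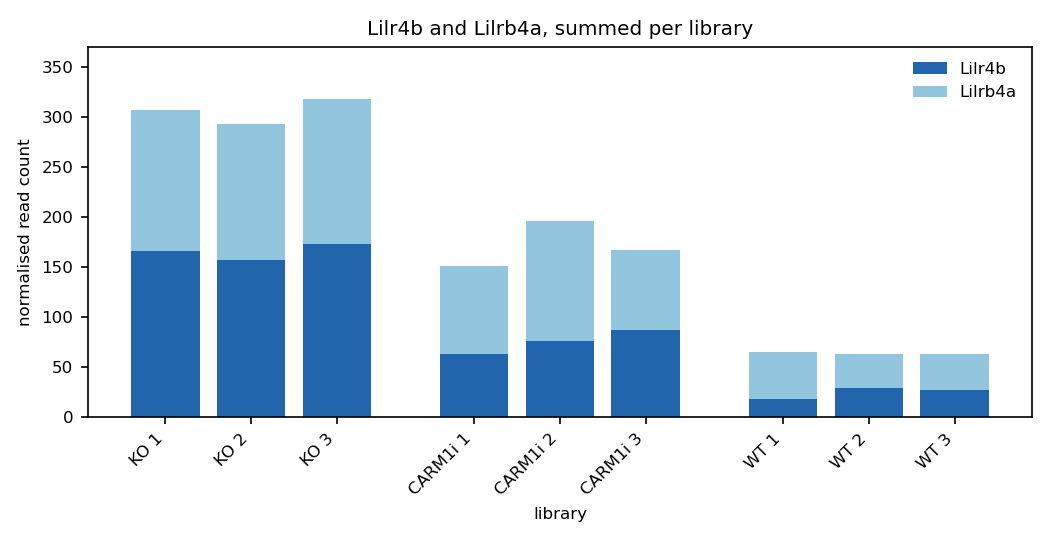
Normalised read count per library (vertical axis, from 0) of Lilr4b (dark, lower) and Lilrb4a (light, upper), stacked, for KO, CARM1i and WT libraries in that order from the left. The stacks reach 293 to 318 in KO, 151 to 195 in CARM1i and 62.6 to 64.6 in WT libraries.

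Cd68 (ENSMUSG00000018774.13, chr11:69664213-69666153, minus strand, 6 exons) had 54.0, 105 and 99.2 normalised counts in KO libraries, 40.5, 43.8 and 66.3 in CARM1i libraries, and 34.5, 56.8 and 36.4 in WT libraries. KO replicates 2 and 3 were above every other library, but KO replicate 1 fell inside the WT range, and CARM1i and WT overlapped. KO against WT differed by 0.98 ± 0.27 (SE) on the log2 scale, and by 1.28 without KO replicate 1. CARM1i against WT stood at 0.24, and at 0.02 without CARM1i replicate 3. The translation factor gene Eif4a1 lies on the same strand, with its 3′ end 783 bases upstream of Cd68, and had 24170 to 24730 normalised counts in KO, 24800 to 25290 in CARM1i and 25440 to 26000 in WT libraries, so Cd68 held 0.13 to 0.43% of its neighbour's count. Whether reads from Eif4a1 transcripts reach Cd68 was not tested.

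Cd14 (ENSMUSG00000051439.6, chr18:36725067-36726798, minus strand) was the member with lower values in KO. It had 130, 97.8 and 100 normalised counts in KO libraries, 148, 130 and 128 in CARM1i libraries, and 130, 165 and 147 in WT libraries. KO replicate 1, at 129.7, lay just under the lowest WT library, at 130.1, so the groups were separate by a fraction of a read count only. KO against WT stood at -0.43 ± 0.14 (SE) on the log2 scale, CARM1i against WT at -0.12 and CARM1i against KO at 0.31.

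Mrc1 (ENSMUSG00000026712.3, chr2:14229392-14332057, plus strand, 29 merged exons) had 55.1, 45.4 and 44.8 normalised counts in KO libraries, 40.5, 42.9 and 62.0 in CARM1i libraries, and 35.3, 44.0 and 37.4 in WT libraries. All KO values were above all WT values, by less than 1 count at the nearest, and CARM1i spanned both. The log2 difference was 0.31 ± 0.22 (SE) for KO against WT and 0.29 for CARM1i against WT, and without CARM1i replicate 3 the second was 0.10. Trem2 (ENSMUSG00000023992.14, chr17:48346401-48354147, plus strand) had 32.4, 32.3 and 42.0 in KO libraries, 28.4, 29.5 and 32.1 in CARM1i libraries, and 28.4, 26.4 and 27.8 in WT libraries. It stood at 0.35 ± 0.23 (SE) for KO against WT and 0.12 for CARM1i against WT, differences near the size of their error. All Trem2 values in KO lay above those of the other libraries, by less than 1 count at the nearest, and CARM1i overlapped WT.

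Csf1r (ENSMUSG00000024621.15, chr18:61100598-61132149, plus strand) had 53.0, 65.5 and 89.7 normalised counts in KO libraries, 69.9, 77.2 and 66.3 in CARM1i libraries, and 53.4, 51.9 and 78.1 in WT libraries. The groups overlapped throughout, and KO against WT stood at 0.17 ± 0.21 (SE) on the log2 scale. Csf1r shares 873 exon bases with Hmgxb3 on the opposite strand, and 14.3% of its 50-base stretches also occur in Hmgxb3 transcripts. Hmgxb3 averaged 3101 ± 60.7 normalised counts in KO, 3055 ± 48.4 in CARM1i and 2575 ± 23.0 in WT libraries (SD, n = 3 each), so Csf1r held 1.73 to 3.02% of its count. The kit keeps strand, but the strand setting of the counting is not given in the sources used here, so reads of the pair may not be told apart. Pdgfrb, an abundant fibroblast gene, lies 15537 bases away on the same strand.

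**Figure D3:**
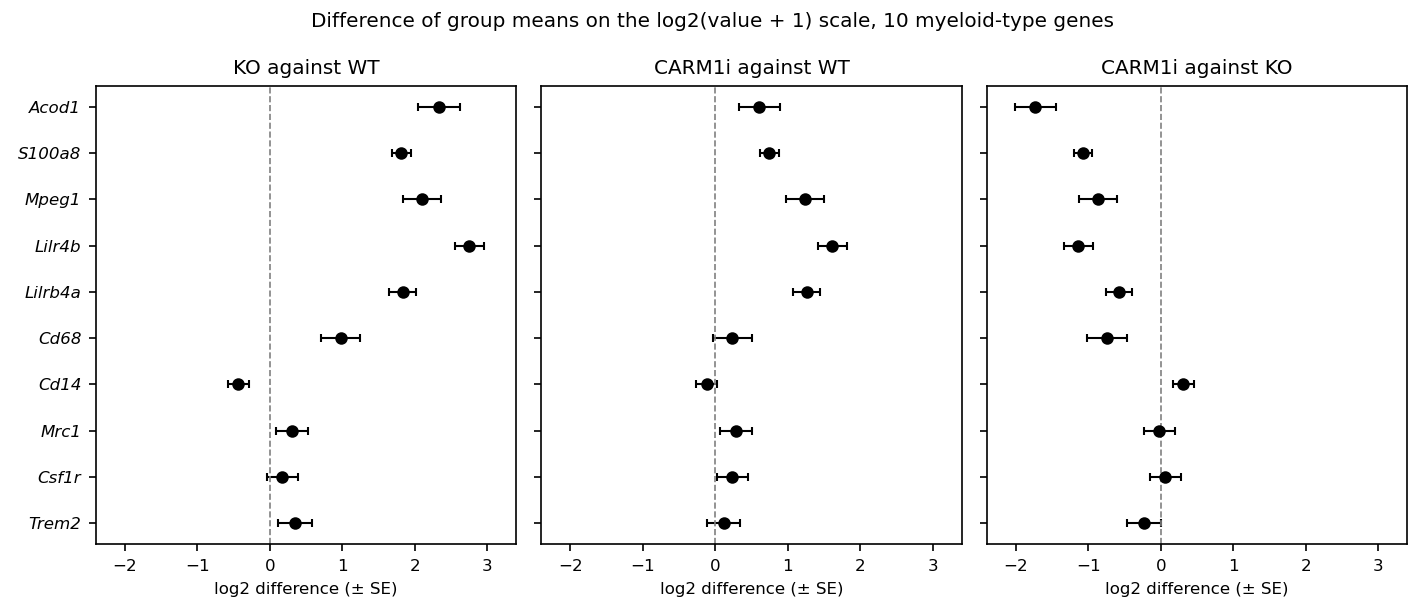
Difference of group means on the log2(value + 1) scale (horizontal axes, bars are the SE of the fit) for the 10 genes in KO against WT, CARM1i against WT and CARM1i against KO; the dashed line marks no difference. Values for KO against WT run from -0.43 in Cd14 to 2.75 in Lilr4b, and Acod1 has the lowest value for CARM1i against KO, -1.73.

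In KO against WT, 6 of the 10 genes passed the threshold of the fit over all genes as higher (Acod1, S100a8, Mpeg1, Lilr4b, Lilrb4a and Cd68) and Cd14 passed as lower, where 21.4% of all tested genes were higher and 20.5% lower. By lack of overlap between the groups, 7 genes were higher and 1 lower, beside 26.7 and 25.9% of all tested genes. The median log2 difference of the 10 genes was 1.40, and that of all 14560 tested genes was -0.0043. Since the genes were chosen with this contrast in view, nothing is read from these counts. The call of Cd14 ended without KO replicate 2, without KO replicate 3 and without WT replicate 2, and the other 6 calls stood without each library in turn.

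For CARM1i against WT, Lilr4b, Lilrb4a, Mpeg1 and S100a8 passed as higher, where 10.5% of all tested genes passed as higher and 8.59% as lower. The same 4 genes were higher without overlap, beside 16.7% of all tested genes in each direction. Without CARM1i replicate 3, the log2 difference was 1.17 in Mpeg1, 1.505 in Lilr4b, 1.38 in Lilrb4a, -0.08 in Cd14, 0.29 in Csf1r (0.24 with it) and 0.07 in Trem2. The 4 calls stood without each library in turn, CARM1i replicate 3 included, and without CARM1i replicate 2 Acod1 passed as well. Since the genes were chosen with their CARM1i values in view, nothing is read from these calls or from how they held. KO and CARM1i are set against the same WT libraries, so likeness between both comparisons is not a result of its own.

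For CARM1i against KO, Acod1, S100a8, Mpeg1, Lilr4b and Lilrb4a passed as lower, where 11.5% of all tested genes passed as lower and 12.1% as higher. Trem2 joined them among the 6 genes that were lower without overlap, beside 18.6% of all tested genes, and 18.3% were higher without overlap. Acod1, S100a8 and Lilr4b stood without each library in turn. Mpeg1 and Lilrb4a were both lost without KO replicate 2, KO replicate 3 or CARM1i replicate 1, Mpeg1 also without CARM1i replicate 2, and Lilrb4a also without KO replicate 1 or CARM1i replicate 3. Cd68 passed as lower without KO replicate 1 or CARM1i replicate 3, and Cd14 passed as higher without KO replicate 1. Nothing is read from these calls either, since the genes were chosen with their KO and CARM1i values in view.

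Per kilobase of each gene's longest-coding transcript, S100a8 had the highest level of the 10 genes in each group, with 666 normalised counts per kilobase in KO, 318 in CARM1i and 187 in WT libraries. Cd14, next in order in CARM1i and WT libraries, stood at 66.5 in KO, 82.4 in CARM1i and 89.8 in WT libraries. Acod1 stood at rank 5 in KO with 78.9, rank 7 in CARM1i with 26.2 and rank 6 in WT with 15.7. The lowest level was that of Mrc1 in KO and CARM1i libraries, at 9.01 and 9.02, and that of Mpeg1 in WT libraries, at 5.78. Library ranges of neighbours in the order overlapped in 3 of 9 pairs in KO (Lilr4b and Cd68, Cd68 and Acod1, Acod1 and Cd14), so those orders are not beyond the spread. They overlapped in 6 of 9 pairs in CARM1i, all but S100a8 with Cd14, Lilr4b with Trem2, and Mpeg1 with Mrc1. In WT 5 of 9 pairs overlapped, and S100a8 and Cd14 stood clear above the rest. With lengths of all merged exons instead, S100a8 stayed highest, and Trem2 became lowest in KO and CARM1i libraries, at 7.19 and 6.06, and Lilr4b in WT libraries, at 4.43. Acod1 then stood at rank 2 in KO, 4 in CARM1i and 4 in WT, and Lilr4b and Lilrb4a at ranks 5 and 6 in KO. The order of these genes therefore depends on the length used.

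Around their group means, pairs of the 10 genes deviated in the same and in opposite directions. The spread within a group ran from 0.18 to 4.83 times the SD that read counting alone gives, both in Acod1. Where it was small, shared deviation could hardly show, so these deviations cannot decide whether the genes move together. Over the 45 pairs, Pearson r between deviations (log2 scale, 9 libraries, group means removed, so fewer than 9 are free) had a median of 0.17 and ran from -0.72 for Acod1 and Lilrb4a to 0.70 for S100a8 and Trem2, and 30 pairs were positive. Over all pairs of tested genes the median was 0.00. Libraries share depth and handling, and some genes share reads, so these are descriptions. Against the summed leukocyte list described next, 8 of 10 genes had a positive r, from -0.62 in Cd14 to 0.77 in Acod1, with a median of 0.51, where all tested genes had a median of -0.01 and 49.1% were positive. Arhgdib alone makes up 75.5 to 83.5% of that sum, so r is largely with this gene.

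**Figure D4:**
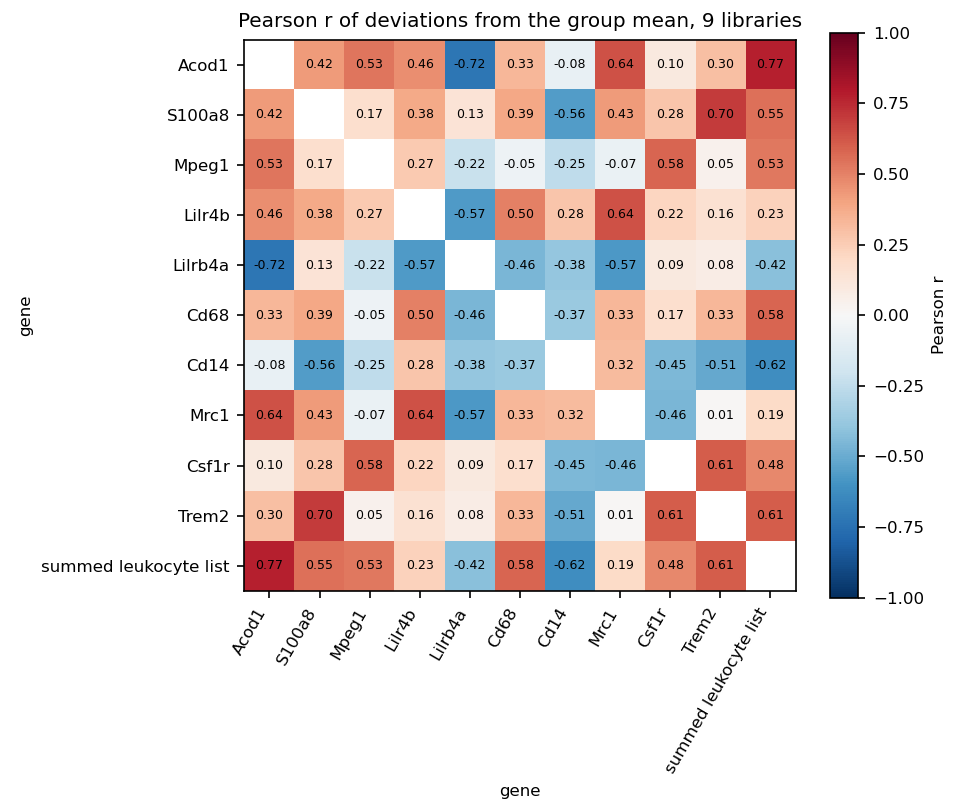
Pearson r (colour and printed value) between deviations from the group mean of each pair of genes, and of each gene with the summed leukocyte list, over 9 libraries on the log2(value + 1) scale. The deepest red cell is Acod1 with the leukocyte list (0.77) and the deepest blue cell is Acod1 with Lilrb4a (-0.72).

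Other myeloid genes were read from lists of leukocyte, macrophage and granulocyte markers that hold none of the 10 genes. These lists and those used further below were written with earlier results of these data known. Their counts of called genes are therefore descriptions and give no separate support. Of 82 listed genes, 25 have values in the data used here and 22 were tested. Every gene with values reached at least 10 reads in some library. Ptprc, which encodes the leukocyte antigen CD45, Ikzf1 and Vav1 are among the 10 of 18 leukocyte genes with no values in these data. Adgre1 (F4/80), Itgam, Spi1, Fcer1g, C1qa and Tyrobp are among the 35 of 46 macrophage genes with no values in them. The macrophage lysozyme gene Lyz2 had 11.9, 11.1 and 6.68 normalised counts in KO libraries, 0, 0.95 and 6.41 in CARM1i libraries, and 6.03, 2.94 and 5.35 in WT libraries, too few for testing. Summed levels were 11730 to 12360 in KO, 10240 to 10900 in CARM1i and 8793 to 9110 in WT libraries for the 8 leukocyte genes, most of it Arhgdib. For the 11 macrophage genes they were 633 to 759 in KO, 558 to 593 in CARM1i and 426 to 484 in WT libraries, and for the 6 granulocyte genes 261 to 386 in KO, 278 to 481 in CARM1i and 377 to 530 in WT libraries. Most of the granulocyte sum was Lcn2 and Mmp9, which averaged 196 and 52.6 in KO and 226 and 175 in WT libraries. Whether a few myeloid cells in the cultures carry part of the values of the 10 genes was not tested.

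Against WT, 10 of the 22 tested genes rose in KO cells, 2 fell and 10 did not pass, beside 21.4% of all tested genes called higher and 20.5% lower. Among those that rose, Csf2rb, Mmp8 and Prtn3 averaged 8.47, 7.3 and 7.85 in WT libraries. These WT means are under 10, so the 3 genes passed the filter only through the other groups, and their rises partly follow from it. Csf2rb, the shared beta chain of the receptors for GM-CSF, IL-3 and IL-5, had 56.2, 76.6 and 73.5 normalised counts in KO libraries, 31.4, 31.5 and 27.8 in CARM1i libraries, and 6.89, 7.83 and 10.7 in WT libraries. It was higher in every KO and CARM1i library than in any WT library, and rose by 2.89 ± 0.26 (SE) on the log2 scale in KO against WT (adjusted p = 6.62e-08, limma with Benjamini-Hochberg adjustment). Itgb2, the beta-2 integrin chain of leukocytes, had 235, 285 and 260 in KO libraries, 156, 147 and 200 in CARM1i libraries, and 74.1, 55.8 and 84.5 in WT libraries. Its groups were separate too, with a rise of 1.87 ± 0.16 (SE, limma adjusted p = 2.72e-08) in KO against WT.

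Cd33, a sialic acid-binding receptor, rose by 1.39 ± 0.22 (SE, limma adjusted p = 5.17e-05), Lcp1, the actin bundler L-plastin, by 1.22 ± 0.27 (limma adjusted p = 0.00126), and Arhgdib by 0.57 ± 0.04 (limma adjusted p = 1e-09). Mmp8, neutrophil collagenase, rose by 1.52, Prtn3, a neutrophil granule protease, by 1.43, Inpp5d, the phosphatase SHIP1, by 1.31, the efferocytosis receptor Mertk by 0.62 and the tetraspanin Cd53 by 0.42. Mmp9, a gelatinase that fibroblasts also make, fell by 1.73 ± 0.16 on the log2 scale (limma adjusted p = 6.21e-08), to 61.6, 50.4 and 45.8 in KO libraries, against 190, 175 and 162 in WT libraries. Lsp1, an actin-binding leukocyte protein, fell by 0.44 ± 0.07. The calls of Mertk and Prtn3 depended on single libraries or settings: Mertk was lost without KO replicate 2 or WT replicate 1 and without an intensity trend, and Prtn3 without KO replicate 1, KO replicate 3 or WT replicate 2.

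In CARM1i against WT, 5 of the 22 genes rose and Mmp9 fell, by 0.87 ± 0.16 (SE, limma adjusted p = 0.000574). The 5 were Csf2rb (1.74 ± 0.26), Itgb2 (1.23 ± 0.16), Prtn3 (1.36 ± 0.44), Cd53 (0.57 ± 0.10) and Arhgdib (0.27 ± 0.04), beside 10.5% of all tested genes called higher and 8.59% lower. Of these, Csf2rb and Prtn3 passed the filter only through groups other than WT. Prtn3 was lost without CARM1i replicate 1, CARM1i replicate 2 or WT replicate 2, in both count tests (edgeR and DESeq2), without an intensity trend, and with only the groups compared in the fit. Without CARM1i replicate 3, 6 of the 22 genes rose, with Csf2rb at 1.80, Itgb2 at 1.09, Cd53 at 0.44 and Arhgdib at 0.23. In CARM1i against KO, Itgb2, Cd33, Mertk, Arhgdib and Csf2rb were lower, at -0.30 (Arhgdib) to -1.15 (Csf2rb) on the log2 scale, Mmp9 (0.85) and Lsp1 (0.34) were higher, and 15 genes did not pass, beside 11.5% of all tested genes called lower and 12.1% higher. In that comparison the call of Mertk was lost when any KO or CARM1i library was left out and without an intensity trend, and that of Cd33 without KO replicate 2, KO replicate 3 or CARM1i replicate 1. Median log2 differences of the 22 genes were 0.63 for KO against WT, 0.47 for CARM1i against WT and -0.22 for CARM1i against KO, where those of the 10 genes were 1.40, 0.45 and -0.66.

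**Figure D5:**
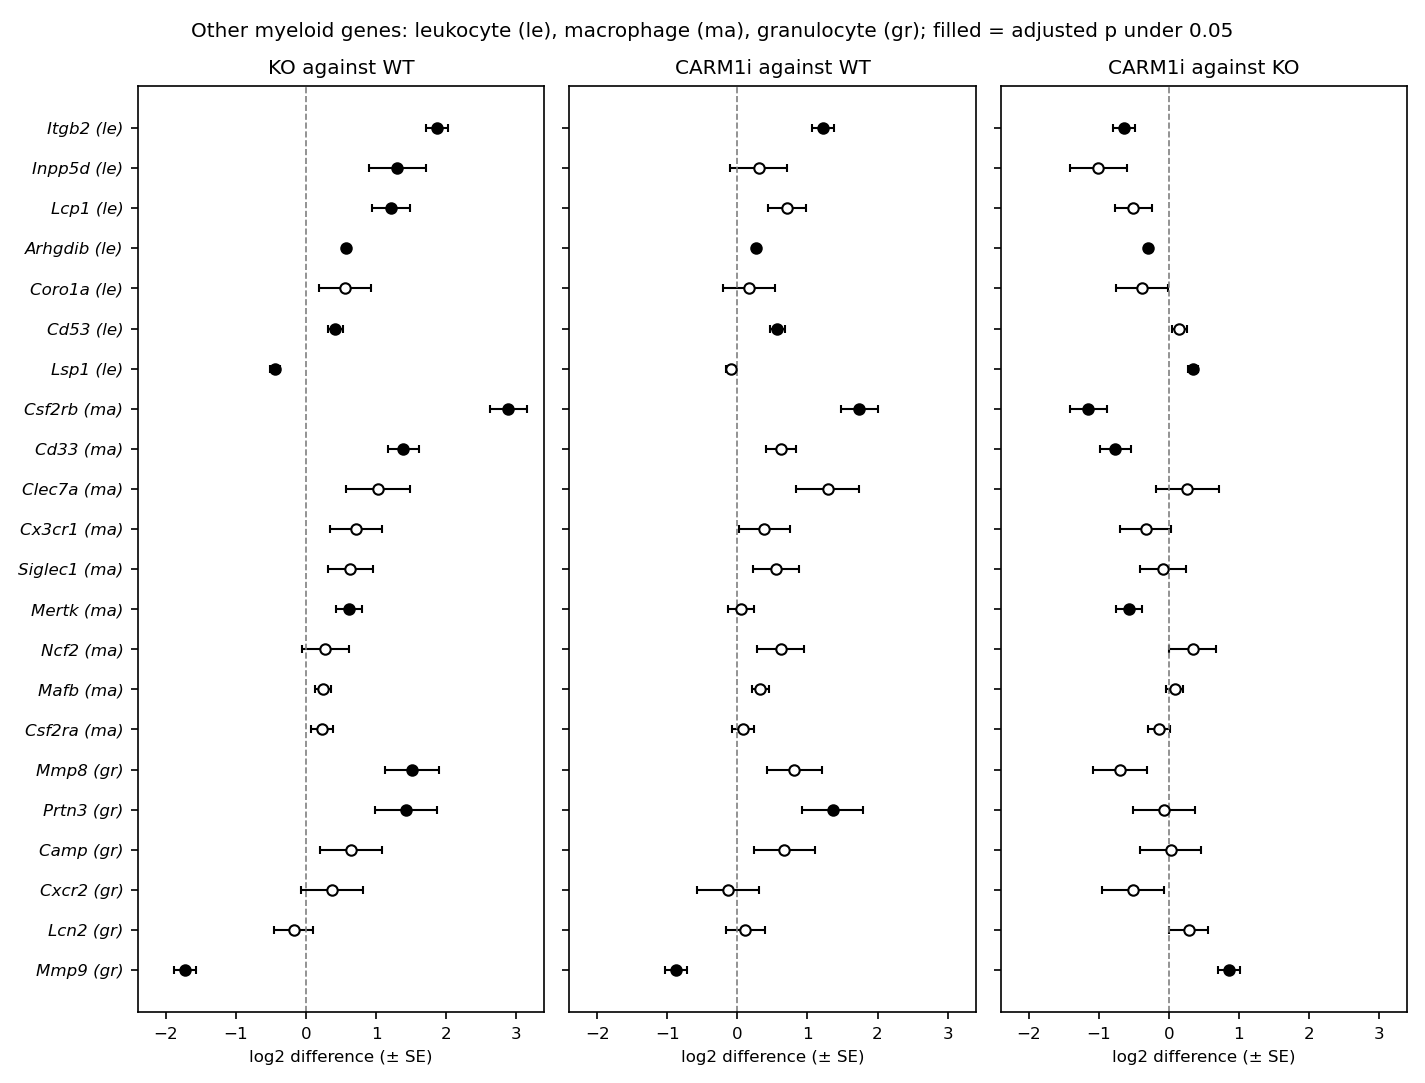
Difference of group means on the log2(value + 1) scale (horizontal axes, bars are the SE of the fit) for the 22 tested genes of the leukocyte, macrophage and granulocyte lists in the 3 comparisons; filled points passed an adjusted p of 0.05. In KO against WT 12 points are filled, from Mmp9 at -1.73 to Csf2rb at 2.89.

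Ligands, co-receptors and relatives of the 10 genes were mostly abundant. Of 28 such genes listed, 25 have values in the data used here and 23 were tested. Of the tested genes, 12 rose and 1 fell in KO against WT, 7 rose and 1 fell in CARM1i against WT, and 4 were lower in CARM1i against KO. Over all tested genes, 21.4% were called higher and 20.5% lower in KO against WT, 10.5 and 8.59% in CARM1i against WT, and 11.5% lower in CARM1i against KO. Csf1, the ligand of Csf1r, had 39820, 38000 and 38970 normalised counts in KO libraries, 27310, 27010 and 31040 in CARM1i libraries, and 29430, 29240 and 29840 in WT libraries. It rose in KO against WT by 0.40 ± 0.04 (SE, limma adjusted p = 4.38e-07), while CARM1i against WT stood at -0.06 (limma adjusted p = 0.412), and passed as lower, at -0.12, without CARM1i replicate 3. Tlr4, the signalling partner of Cd14, rose by 0.35 ± 0.06 in KO (limma adjusted p = 5.28e-05) and by 0.25 ± 0.06 in CARM1i (limma adjusted p = 0.0036), each against WT. Cd14 and Tlr4 stood on opposite sides of WT in KO cells.

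Lamp1, a lysosomal membrane glycoprotein related to Cd68, rose by 0.67 ± 0.03 in KO (SE, limma adjusted p = 2.79e-11) and by 0.29 ± 0.03 in CARM1i (limma adjusted p = 6.81e-06), each against WT, and Lamp2 rose by 0.35 and 0.14. Apoe, an apolipoprotein that Trem2 binds, rose by 0.76 ± 0.10 in KO (limma adjusted p = 1.03e-05) and by 0.65 ± 0.10 in CARM1i (limma adjusted p = 0.000194). Itgav, an integrin chain, fell by 0.12 in each. In CARM1i against KO the 4 lower genes were Csf1 (-0.45), Lamp1 (-0.38), Myd88 (-0.30), an adaptor of Toll-like receptors, and Lamp2 (-0.21).

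Of 14 tested fibroblast genes, 3 rose and 7 fell in KO against WT, beside 21.4% of all tested genes called higher and 20.5% lower. Col3a1 was lower by 1.27 ± 0.06 (SE, limma adjusted p = 1.84e-11), Pdgfra by 0.68 ± 0.04 (limma adjusted p = 6.5e-10) and Col1a1 by 0.94 ± 0.06 (limma adjusted p = 1.26e-09). Postn was higher by 0.82 ± 0.06 (limma adjusted p = 1.1e-08). In CARM1i against WT 2 rose and 5 fell, beside 10.5 and 8.59% of all tested genes. The 15 fibroblast genes summed to 412900 to 436800 normalised counts in KO, 409000 to 448600 in CARM1i and 440900 to 457100 in WT libraries, so the KO range lay below WT. Fn1, the most abundant of them, averaged 161700 in KO, 133900 in CARM1i and 122700 in WT libraries. The sum therefore mixes its rise with the falls of other genes. Of the 4 tested endothelial genes Egfl7 rose in KO (0.35, limma adjusted p = 0.0249) and in CARM1i (0.46, limma adjusted p = 0.012), each against WT. The first call was lost without KO replicate 2 or WT replicate 2, and the second without WT replicate 2. Of the 2 tested epithelial genes Krt18 rose in KO (1.58, limma adjusted p = 4.58e-05). The mast cell genes Hdc and Ms4a2 and the lymphoid gene Lck did not pass in any comparison, with 5.06 to 17.2 normalised counts for Lck. Their part in the values of the 10 genes was not tested.

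Among 11799 other genes with a mean of at least 50, the pattern most like each gene over the 9 libraries was sought by Pearson r of log2(value + 1), given as a description. Acod1 was closest to the chemokine gene Cxcl11 (r = 0.99), at 150 in KO, 66.9 in CARM1i and 49.4 in WT libraries on average, and to Ube2l6 (0.99), an enzyme of ISG15 conjugation. S100a8 was closest to Gsap and Atg7 (1.00 each), Mpeg1 to Comtd1 (1.00) and Mfsd4b3 (0.99), and Lilr4b to Smim14 and Rnd2 (0.99 each). Lilrb4a was closest to Cfap36 (0.99) and Lman2 (0.98), Cd68 to Acp6 (0.96) and Slc19a2 (0.94), and Cd14 to Gabrb1 (0.97) and Zfp629 (0.96). Mrc1 was closest to Ypel5 (0.95) and Nus1 (0.91), Trem2 to Timm10 (0.96) and Gm17018 (0.95), and Csf1r to Gm43719 (0.89) and Fbxo34 (0.88). How common such values of r are among all genes was not tested.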

How the data were processed

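Poly(A) RNA of 9 mouse embryonic fibroblast samples (3 KO, 3 CARM1i, 3 WT) was sequenced from a stranded kit, per the labels' protocols. Tools in the submitters' processing notes are DESeq 1.18.0, TopHat2 2.0.10 and HTSeq 0.6.0, with build mm10; annotation, strand setting and treatment of multiply mapped reads were not given in the sources used here. What the authors deposited are read counts divided by size factors, a normalised signal per gene and library. Each of the 16428 genes reached 10 reads somewhere. Divided by what 1 read is worth, 100% of values in every library came out whole (tolerance 1e-06 of a read), with size factors of 0.925 to 1.16. In KO replicate 2 that step, 1.01, is too near 1 for the automatic test of wholeness. Of the IDs, 16413 matched GENCODE M21 without version.

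Since values were normalised, all 9 libraries entered a limma 3.58.1 fit (R 4.3.3) with an intensity trend and 3 groups on log2(value + 1), a scale that understates changes of low genes. Genes with a mean under 10 were left out, 14560 were tested, and Benjamini-Hochberg adjusted p-values over them had a threshold of 0.05. Counting SDs and sequence shares cover counting error and annotation only. The members and gene lists were chosen with earlier results of these data known. Named genes were all 10 members, the 2 genes most like each member, and genes of the lists. List genes were drawn from up to 4 per list by smallest adjusted p in each comparison with WT, and from genes that changed between CARM1i and KO. Not all genes that this rule gives are named. Other called genes of the myeloid lists were named after their values were seen, so that the counts are complete. Carm1, Itgav, Lyz2, Lcn2, genes near the members and listed genes without values were also named outside the rule. Alternatives were other filters, pseudocounts, scalings, left-out libraries, a replicate block, and count tests on recovered reads (DESeq2 1.42.0, edgeR 4.0.16). The fit was also run on simulated counts, whose outcome is not given here and lends no support to the calls.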

Additional observations from a re-analysis of the deposited data

How the results depend on the processing

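Over the alternatives run, the members' log2 differences kept their sign except for Mrc1 in CARM1i against KO and Csf1r in KO against WT and CARM1i against KO, all near 0 and within the spread. Those that moved by more than the spread were in KO against WT with a pseudocount of 10: S100a8 at 1.72, Lilr4b at 2.37 and Lilrb4a at 1.63. Of the 10 members, 6 higher calls in KO against WT and 4 in CARM1i against WT stood under each filter, pseudocount, scaling and count test. The members were chosen with these values in view, so nothing is read from how their calls held. Without an intensity trend 3 members were lower in CARM1i against KO in place of 5, and 1797 genes were called in CARM1i against WT in place of 2784. The other myeloid genes called higher were 4 in KO and 3 in CARM1i, each against WT, where the minimum mean was 50 and 9 genes were tested, and 8 in CARM1i against WT with quantile normalization. Leaving out each library in turn gave 0 to 1 members lower in KO against WT, 3 to 5 lower and 0 to 1 higher in CARM1i against KO, and 4 to 5 higher in CARM1i against WT. The other myeloid genes called higher then numbered 9 to 10 in KO and 4 to 7 in CARM1i against WT, and 2 to 3 in CARM1i against KO. All genes called numbered 5243 to 6464 in KO against WT, 1936 to 2677 in CARM1i against WT and 2600 to 3682 in CARM1i against KO. Deviations of same-numbered libraries correlated at -0.09 to 0.03 and those of other libraries at -0.04 to 0.07. These values show no pairing by number but cannot exclude a small shared effect. With a replicate block 5865, 2553 and 3156 genes were called in those 3 comparisons in place of 6100, 2784 and 3436, and Cd68 joined the members lower in CARM1i against KO, as with both count tests. Members' counts of 17 to 369 reads limit differences below about their SE, and the causes of these changes were not tested.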
